A study of Homo sapiens with 2 samples.

Results

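The genes described here are 52 factors that build ribosomes or belong to the RNA exosome, measured in BT549 cells, an established human triple-negative breast cancer line with mesenchymal features. They were listed by name and known role, with earlier results of these data known, and no measured value enters the rule: components of the small-subunit processome, factors of ribosomal RNA (rRNA) processing, the small nucleolar ribonucleoproteins (snoRNPs), the exosome subunits and genes of RNA polymerase I (Pol I). All 52 were found among the 58735 genes of the deposited tables, and 51 were measured, meaning at least 1 FPKM in the higher library, as were 12866 genes in all. FPKM gives reads per length of transcript over a divisor for sequencing depth. Here both libraries share 1 divisor, so the values are not scaled to each library's own total.

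The series holds 1 shSIK2 library, from cells with a short hairpin RNA against the salt-inducible kinase SIK2, and 1 scrambled library, from cells with a control hairpin. All cells had received Wnt3a, a Wnt ligand, for 2 h, so neither library shows cells without it. The sources used here name neither the hairpin sequence and vector nor the number of clones or cultures behind each library. Since each group is a single library, differences have no replicate behind them and were not tested. Each fold is followed by its 95% interval, which reflects counting error and nothing else.

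Reads counted on genes came to 16347399 for shSIK2 and 18019225 for scrambled cells. SIK2 itself was at 3.56 FPKM (599 reads) in the shSIK2 library and 7.80 FPKM (1312 reads) in the scrambled library, 2.19-fold lower (1.99 to 2.42), and 6.35% of measured genes were at least as low. The 5 mesenchymal markers of the line were all measured, with 54585 summed reads in the shSIK2 library and 37971 in the scrambled library, and lay on both sides of equal values. SPARC was at 189 FPKM in the shSIK2 library and 38.1 FPKM in the scrambled library, 4.95-fold higher (4.76 to 5.14), THY1 was 2.09-fold higher (2.01 to 2.18) and VIM 1.09-fold higher (1.07 to 1.11), while AXL was 1.39-fold lower (1.32 to 1.45) and FN1 1.32-fold lower (1.26 to 1.39). The 5 epithelial markers summed to 1154 reads in the shSIK2 library and 167 in the scrambled library, and 1 of them was measured. This was the keratin KRT18, at 19.3 FPKM (1064 reads) in the shSIK2 library and 2.14 FPKM (118 reads) in the scrambled library, 9.02-fold higher (7.45 to 11.0). KRT8 had 88 reads in the shSIK2 library and 13 in the scrambled library, CDH1 had 2 in shSIK2 and 11 in scrambled cells, ESRP1 had 0 in shSIK2 and 25 in scrambled cells, and EPCAM had 0 reads in both. The part of these marker differences in the ratios below was not tested. None of the leukocyte and endothelial markers reached 1 FPKM: the 5 leukocyte markers summed to 20 reads in the shSIK2 library and 22 in the scrambled library, and the 4 endothelial ones to 1 in the shSIK2 library and 3 in the scrambled library. Less of a transcript per cell and fewer cells that carry it cannot be told apart in these libraries. Total RNA per cell was not measured, so amounts per cell are not known.

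As background, ribosomes begin in the nucleolus, where Pol I transcribes a long precursor rRNA. The small-subunit processome folds and cuts its first part, box C/D and box H/ACA snoRNPs modify its bases and sugars, and a separate set of factors matures the large subunit. The exosome is a barrel of non-catalytic subunits with attached nucleases that trims rRNA ends and degrades nuclear and cytoplasmic RNA. Growing cancer cells depend on this pathway, and the transcription factor MYC is a known activator of many of its genes, often through the E-box sequence CACGTG.

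Transcripts of the listed genes were lower in the shSIK2 library nearly throughout. Of the 51 measured genes 49 (96.1%) had a log2 ratio of shSIK2 over scrambled below 0, against 55.9% of all measured genes. Lower by at least 1.5-fold were 28 of 51 (54.9%), against 21.3% of all measured genes, and 0 were at least 1.5-fold higher, against 19.7%. At the stricter limit of 2-fold, 6 genes (11.8%) were lower, a share close to the 8.28% of all genes, and 0 were higher, against 11.0%. The differences were thus moderate in size and mostly in 1 direction. The median log2 ratio was -0.65, with the middle of the genes from -0.88 (lower quartile) to -0.28 (upper quartile), against a median of -0.11 for all measured genes. Together the 52 genes took 84460 reads, 0.517% (0.513 to 0.520, exact Clopper-Pearson) of the shSIK2 library, against 121138 reads, 0.672% (0.669 to 0.676), of the scrambled library. The fold of the summed reads was 1.43. As deposited, the counting interval lay below a ratio of 1 for 45 genes, against 42.9% of all measured genes. It lay above 1 for 1 gene, RRP8, against 30.4%. These counts do not correct for the smaller shSIK2 total and were not made at equal totals. Intervals are also narrower for abundant genes. The list had a median of 21.7 FPKM in the scrambled library, against 7.43 FPKM for measured protein-coding genes.

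**Figure D1:**
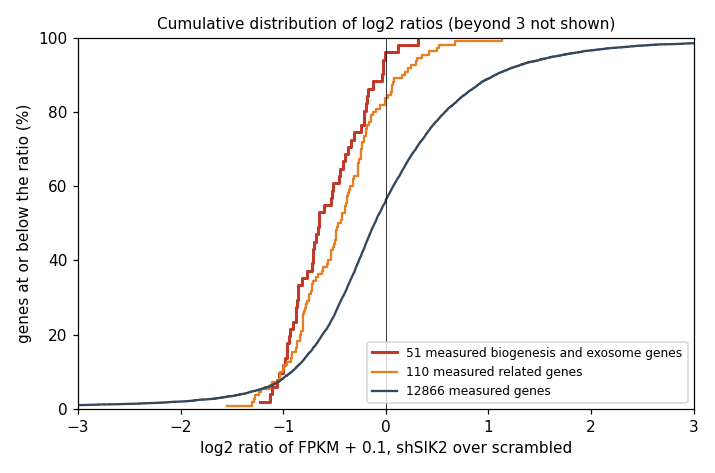
Cumulative share of genes (vertical axis, %) at or below each log2 ratio of FPKM plus 0.1, shSIK2 over scrambled (horizontal axis), for the 51 measured ribosome biogenesis and exosome genes (red), 110 measured related genes (orange) and all 12866 measured genes (dark blue). The red curve lies left of the dark blue one over most of its range, with medians of -0.65 and -0.11, and both curves meet near a ratio of -1.

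How the libraries are scaled sets the number of genes past a limit. The deposited values use 1 divisor for both libraries. Scaling each library to its own total adds 0.14 to log2 ratios, and less in genes near 0 FPKM because of the added 0.1. It left 44 of 51 genes below 0, against 48.3% of all measured genes, 19 at least 1.5-fold lower, against 15.8%, 0 at least 1.5-fold higher, against 24.0%, and UTP25 alone at least 2-fold lower, against 6.04%. Of all measured genes past 1.5-fold, 51.8% were lower as deposited and 39.8% at equal totals. The distance of the list median from the median of all measured genes was -0.55 as deposited and -0.54 at equal totals.

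The log2 ratio also followed base composition across measured protein-coding genes (Spearman rho 0.33 over 10663 genes that share both libraries), and this was set beside the list. Median GC content was 48.0% in the 51 genes and 48.0% in measured protein-coding genes. Below 45% GC the median log2 ratio was -0.68 in 18 of the genes, against -0.30 in 4157 protein-coding genes. From 45 to 55% it was -0.65 in 22, against -0.16 in 3419, and above 55% it was -0.60 in 11, against 0.22 in 3087. In this last class 6 of the 11 genes were at least 1.5-fold lower, against 8.94% of protein-coding genes of like composition. With the trend in GC content and exon length removed, the list median was -0.46, and 20 of the 51 genes were at least 1.5-fold lower, against 14.3% of protein-coding genes. The list was also set beside genes of like level. Among genes with a mean of 5 to 20 FPKM, 16 of 28 were at least 1.5-fold lower, against 21.1% of protein-coding genes, and from 20 to 50 FPKM 8 of 15 were, against 26.0%.

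The 51 genes lie on 21 chromosomes. The 20 nearest measured genes around each had median log2 ratios between -0.59 and 0.49. Of the 51 genes 44 were below the median of their neighbours, against 50.7% of all measured genes, and the list median after subtracting it was -0.53.

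Promoter sequences were examined because most ratios lay in 1 direction. Windows of 300 bases, 250 before to 50 after the annotated start, were matched by symbol in RefSeq (GRCh38.p14) for 44 of the 52 genes. The E-box CACGTG, which reads the same on both strands, occurred in 14 of these 44 windows (31.8%), against 10.6% of 8576 windows of measured protein-coding genes and 7.43% of all 27305 windows. In 13 of the 14 windows (92.9%) a copy began within 50 bases of the start, against 364 of 906 windows with the motif (40.2%) among measured protein-coding genes. Of the 17 copies, 9 (52.9%) began in the first 50 transcribed bases, against 9.94% of the 1036 copies in the other set. The ETS motif CCGGAAG was found on either strand in 27.3% of the 44 windows, against 21.1% of measured protein-coding genes. TATAAA was found in 2 (4.55%), against 4.92%, and CCAAT in 34.1%, against 37.0%. The E-box variant CACGCG was found in 13 (29.5%), against 19.3%. A match describes these letters and not a bound factor.

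The 30 bases around the copy nearest the start are shown, 5′ to 3′ on the strand of each gene, to let the sites be compared, with CACGTG in capitals. Those of the processome genes, in order of their log2 ratio from the lowest, are the following.
UTP25: agtcagcgagccCACGTGcttgtgttgact
UTP14A: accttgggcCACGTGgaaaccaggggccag
UTP20: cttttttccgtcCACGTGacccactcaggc
UTP4: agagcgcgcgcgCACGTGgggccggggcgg
UTP18: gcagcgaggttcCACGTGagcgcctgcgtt
NOP14: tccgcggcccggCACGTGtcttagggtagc
RRP9: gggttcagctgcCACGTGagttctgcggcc
Those of the other genes follow in the same order, ending with NOP2.
EXOSC5: caactgcagccgCACGTGggctcggcgcga
MYBBP1A: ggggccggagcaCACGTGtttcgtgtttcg
BYSL: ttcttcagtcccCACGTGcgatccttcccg
PES1: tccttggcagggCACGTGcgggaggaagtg
NOP10: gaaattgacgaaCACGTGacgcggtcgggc
FBL: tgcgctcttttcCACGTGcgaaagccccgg
NOP2: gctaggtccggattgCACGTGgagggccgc
The motif began at transcribed base 5 in UTP18, 7 in FBL, 14 in PES1, 15 in UTP25 and EXOSC5, 16 in NOP14, 28 in MYBBP1A, 29 in BYSL and 36 in NOP2. It began 5 bases before the start in RRP9, 10 in UTP20, 11 in NOP10, 16 in UTP4 and 241 in UTP14A. Measured genes with the motif ranged from UTP25, the lowest of the 51, to RRP9, which differed by less than counting error as deposited. The 13 measured genes with the motif had a median log2 ratio of -0.71, with 9 at least 1.5-fold lower, and the 30 without it had -0.52, with 14. Among measured protein-coding genes the medians were -0.20 with the motif and -0.14 without it, and 190 of 906 genes with it and 1516 of 7670 without it were at least 1.5-fold lower.

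The promoters of EXOSC5, UTP18 and NOP10 are given over the 250 bases before the start, because each window carries 2 copies. EXOSC5 and UTP18 each hold a copy 89 bases before the start beside the one shown above, and NOP10 holds copies 170 and 11 bases before it. They lie at chr19:41397360-41397609 (minus strand), chr17:51260296-51260545 (plus strand) and chr15:34343137-34343386 (minus strand) in GRCh38.p14, with CACGTG in capitals.
EXOSC5: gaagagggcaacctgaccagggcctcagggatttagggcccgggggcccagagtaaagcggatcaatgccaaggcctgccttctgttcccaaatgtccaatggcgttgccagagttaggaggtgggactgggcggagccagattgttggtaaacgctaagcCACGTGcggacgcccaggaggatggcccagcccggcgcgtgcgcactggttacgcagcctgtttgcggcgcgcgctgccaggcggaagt
UTP18: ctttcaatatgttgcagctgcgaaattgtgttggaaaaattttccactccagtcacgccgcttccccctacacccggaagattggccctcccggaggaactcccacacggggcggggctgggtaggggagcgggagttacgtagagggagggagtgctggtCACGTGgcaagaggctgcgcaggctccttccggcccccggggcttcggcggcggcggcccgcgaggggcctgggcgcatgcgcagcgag
NOP10: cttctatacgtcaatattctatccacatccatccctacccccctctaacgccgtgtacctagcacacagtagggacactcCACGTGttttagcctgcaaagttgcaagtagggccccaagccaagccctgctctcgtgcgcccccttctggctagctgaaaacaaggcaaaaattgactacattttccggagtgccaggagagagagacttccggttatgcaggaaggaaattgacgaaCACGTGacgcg

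**Figure D2:**
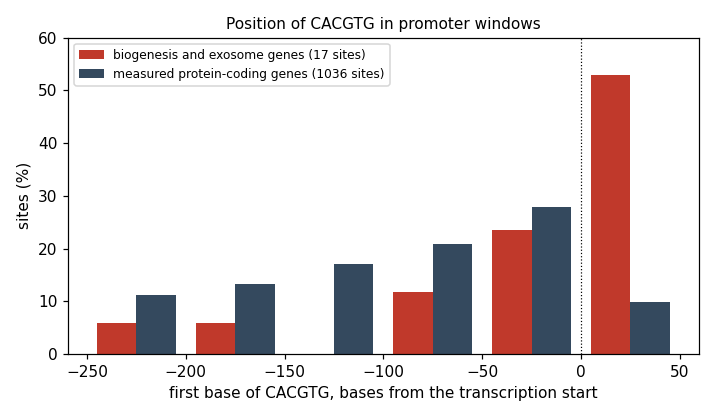
Position of the first base of CACGTG relative to the transcription start (horizontal axis, bases, in bins of 50) as a share of all copies (vertical axis, %), for 17 copies in ribosome biogenesis and exosome genes (red) and 1036 copies in measured protein-coding genes (dark blue). The bin after the start holds 52.9% of the copies in the listed genes and 9.94% of those in the other set.

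Levels spanned a wide range that both libraries shared. The median was 13.0 FPKM in the shSIK2 library and 21.7 FPKM in the scrambled library, against 6.88 and 7.43 FPKM for measured protein-coding genes. Across the 51 genes, which are not replicates, the order of FPKM was similar in both libraries (Spearman rho 0.94). NPM1, NOLC1, NCL, FBL and the H/ACA proteins NOP10 and DKC1 were the most abundant, and RRP8 and RRP15 the least abundant of the measured genes. The ratio bore little relation to the level (Spearman rho 0.05 with mean FPKM) or to exon length (-0.08).

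**Figure D3:**
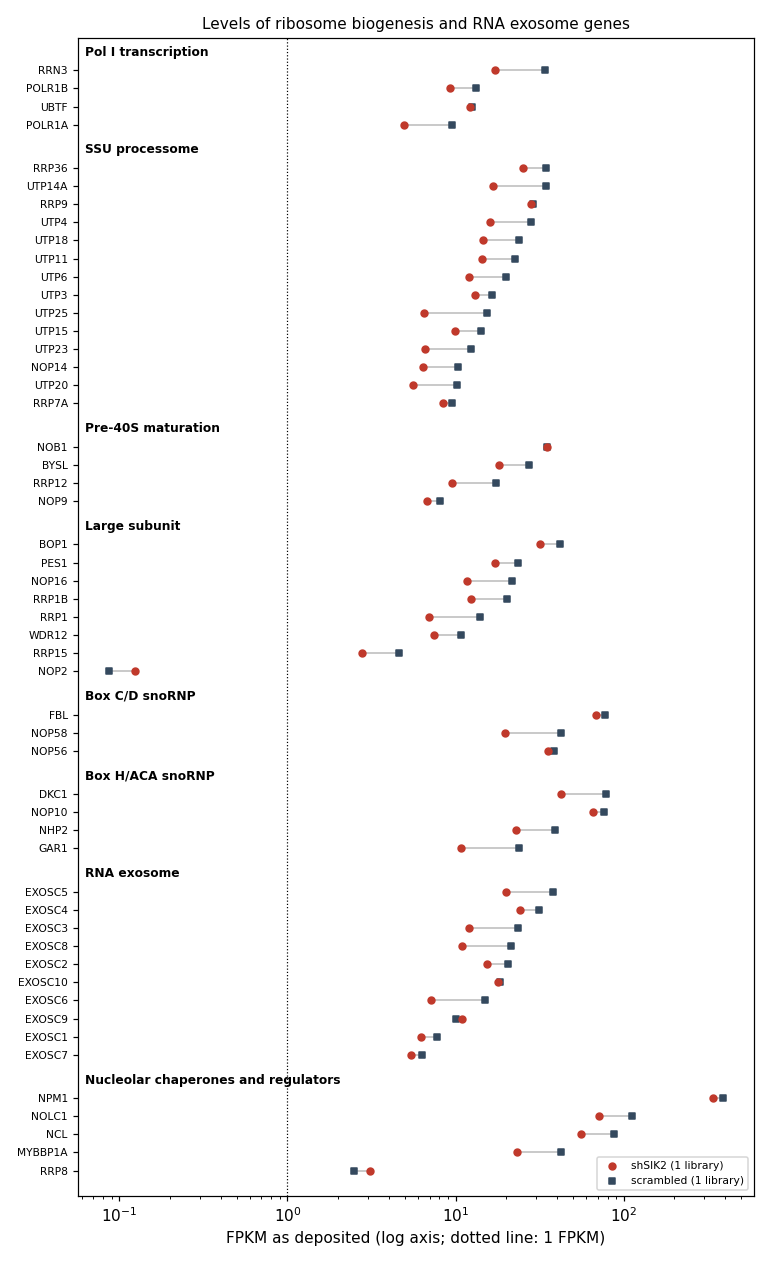
FPKM as deposited (horizontal log axis) of the 52 genes, by role, in the shSIK2 library (red circles) and the scrambled library (dark squares), 1 library each. Red lies left of dark for all but EXOSC9, RRP8 and NOP2, and NOP2 is the one gene left of the 1 FPKM line.

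Of the 4 genes of Pol I transcription, all had log2 ratios below 0, against 55.9% of all measured genes. At least 1.5-fold lower were 2, against 21.3%, with a group median of -0.73. RRN3, the factor that brings the polymerase to promoter-bound proteins (ENSG00000085721, chromosome 16, 15060022 to 15094317, GRCh38), stood at 17.1 FPKM (1222 reads) in the shSIK2 library and 34.0 FPKM (2424 reads) in the scrambled library, 1.98-fold lower (1.85 to 2.13). POLR1A, the largest subunit of the enzyme, stood at 4.94 FPKM in shSIK2 against 9.52 in scrambled cells (1146 and 2209 reads), 1.93-fold lower (1.79 to 2.07). POLR1B, the second-largest subunit, was 1.44-fold lower (1.32 to 1.56), at 9.21 FPKM in shSIK2 against 13.2 in scrambled cells (1000 and 1436 reads). UBTF, which binds ribosomal DNA, had nearly equal values of 12.1 FPKM in shSIK2 against 12.5 in scrambled cells (1453 and 1495 reads), 1.03-fold lower (0.957 to 1.11). As deposited, the initiation factor and the catalytic subunits were thus lower while the DNA-binding factor differed by less than counting error. The log2 ratio of UBTF was 0.10 at equal totals and -0.26 relative to neighbours. RRN3 has pseudogene copies with few reads of their own, 55 in the shSIK2 library and 42 in the scrambled library over 2 named copies, and how near-identical reads were divided is not known.

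All 14 processome genes had log2 ratios below 0, against 55.9% of all measured genes. At least 1.5-fold lower were 9, against 21.3%, and at least 2-fold lower were 2, against 8.28%. The group median was -0.69. UTP25 (ENSG00000117597, chromosome 1, 209828007 to 209857565), a conserved processome factor, was the lowest of all 52 genes, at 6.48 FPKM (1154 reads) in the shSIK2 library and 15.3 FPKM (2726 reads) in the scrambled library, 2.36-fold lower (2.20 to 2.53). UTP14A, whose yeast counterpart activates an RNA helicase of the processome (ENSG00000156697, chromosome X, 129906121 to 129929761), stood at 16.7 FPKM (1168 reads) in the shSIK2 library and 34.3 FPKM (2406 reads) in the scrambled library, 2.06-fold lower (1.92 to 2.21). These were the processome genes past 2-fold, and UTP14A was short of it at equal totals, with a log2 ratio of -0.90.

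Next came UTP23 at 6.56 FPKM in shSIK2 against 12.3 in scrambled cells (591 and 1112 reads), 1.88-fold lower (1.70 to 2.08), and the large scaffold UTP20 at 5.57 FPKM in shSIK2 against 10.2 in scrambled cells (959 and 1758 reads), 1.83-fold lower (1.69 to 1.99). UTP4, a member of the first subcomplex to join the precursor in yeast, stood at 15.9 FPKM in shSIK2 against 28.1 in scrambled cells (1553 and 2744 reads), 1.77-fold lower (1.66 to 1.88). UTP15, of the same subcomplex, was 1.43-fold lower (1.32 to 1.55). UTP6 and UTP18 belong to the second subcomplex, UTP-B. UTP6 was at 12.0 FPKM in shSIK2 against 19.8 in scrambled cells (1325 and 2196 reads), 1.66-fold lower (1.55 to 1.78), and UTP18 at 14.6 FPKM in shSIK2 against 23.9 in scrambled cells (681 and 1114 reads), 1.64-fold lower (1.49 to 1.80). NOP14, needed for 18S rRNA in yeast, stood at 6.39 FPKM in shSIK2 against 10.3 in scrambled cells (388 and 626 reads), 1.61-fold lower (1.42 to 1.84). UTP11 had 14.3 FPKM in shSIK2 against 22.5 in scrambled cells (829 and 1308 reads), 1.58-fold lower (1.45 to 1.72). These 7 genes, leaving out UTP15, were at least 1.5-fold lower.

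The smallest differences among the processome genes as deposited belonged to RRP9, RRP7A and UTP3. RRP9, the protein specific to the U3 snoRNP, was at 28.1 FPKM in shSIK2 against 28.7 in scrambled cells (760 and 776 reads), 1.02-fold lower (0.923 to 1.13). RRP7A, of the UTP-C subcomplex, was at 8.45 FPKM in shSIK2 against 9.53 in scrambled cells (592 and 668 reads), 1.13-fold lower (1.01 to 1.26), and UTP3 at 13.0 FPKM in shSIK2 against 16.4 in scrambled cells (461 and 585 reads), 1.27-fold lower (1.12 to 1.44). Relative to their neighbours UTP3 had a log2 ratio of 0.14 and RRP7A one of -0.67. RRP36, the most abundant of the group by mean FPKM, had 25.2 FPKM in shSIK2 against 34.5 in scrambled cells (958 and 1310 reads), 1.37-fold lower (1.26 to 1.49). For RRP9 the interval includes 1, and RRP9 and RRP7A moved to 0.11 and -0.03 at equal totals.

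Of the 4 genes for maturation of the precursor small subunit, 2 were at least 1.5-fold lower, against 21.3% of all measured genes. The group median was -0.42. RRP12, an export factor of precursor subunits, was at 9.54 FPKM (1396 reads) in the shSIK2 library and 17.4 FPKM (2544 reads) in the scrambled library, 1.82-fold lower (1.71 to 1.95). BYSL, which leaves the precursor late, was at 18.0 FPKM in shSIK2 against 27.4 in scrambled cells (695 and 1059 reads), 1.52-fold lower (1.38 to 1.68). NOP9, an RNA-binding protein known from yeast, was 1.18-fold lower (1.07 to 1.31), at 6.78 FPKM in shSIK2 against 8.03 in scrambled cells (702 and 831 reads), and exons of neighbouring genes on the other strand cover 32.4% of its exonic bases. NOB1, the endonuclease that cuts the 3′ end of 18S rRNA, had 34.8 FPKM in shSIK2 against 35.1 in scrambled cells (1266 and 1276 reads), 1.01-fold lower (0.932 to 1.09). As deposited, the nuclease of the last step thus differed by less than counting error, and the export factor by more. Exons of another gene on the other strand cover 20.2% of the exonic bases of NOB1. At equal totals the log2 ratio was 0.13 for NOB1 and -0.72 for RRP12, and relative to neighbours 0.30 and -0.73.

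**Figure D4:**
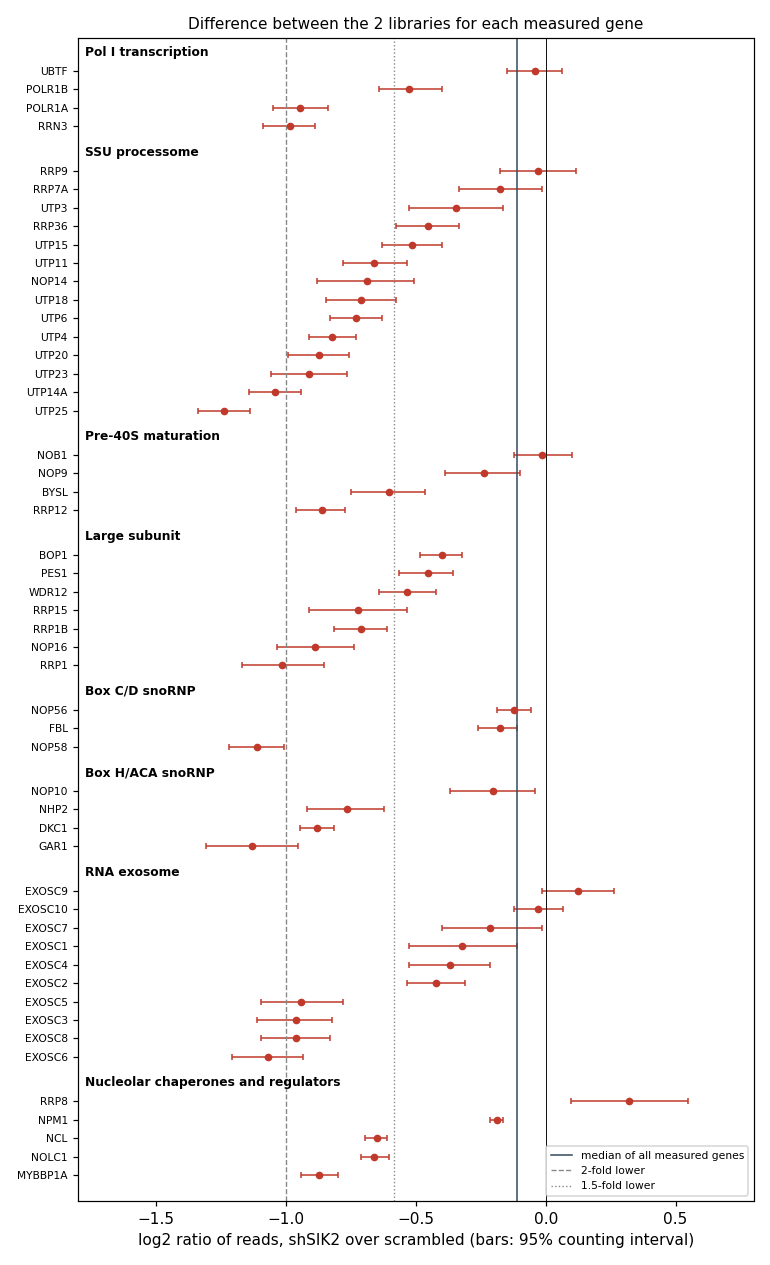
Log2 ratio of reads, shSIK2 over scrambled (horizontal axis), for the 51 measured genes by role, with 95% counting intervals. The solid dark line marks the median log2 ratio of FPKM plus 0.1 of all measured genes (-0.11). Most points lie left of it, down to UTP25 (2.36-fold lower), and RRP8 (1.25-fold higher) is the only one whose interval lies above 0. Reads are not scaled to equal totals.

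The large-subunit group had 8 genes, of which 7 were measured. All 7 had ratios below 0, against 55.9% of all measured genes. At least 1.5-fold lower were 4, against 21.3%, with a group median of -0.70. RRP1 (ENSG00000160214, chromosome 21, 43789513 to 43805293) stood at 6.91 FPKM (504 reads) in the shSIK2 library and 14.0 FPKM (1018 reads) in the scrambled library, 2.02-fold lower (1.81 to 2.25). Its paralog RRP1B (ENSG00000160208, chromosome 21, 43659548 to 43696079), beside it on the same chromosome, stood at 12.3 FPKM in shSIK2 against 20.1 in scrambled cells (1212 and 1990 reads), 1.64-fold lower (1.53 to 1.76). The median of neighbouring genes there was -0.32 for both. NOP16, a nucleolar protein, was at 11.7 FPKM in shSIK2 against 21.7 in scrambled cells (576 and 1065 reads), 1.85-fold lower (1.67 to 2.05), and RRP15 at 2.78 FPKM in shSIK2 against 4.59 in scrambled cells (376 and 621 reads), 1.65-fold lower (1.45 to 1.88).

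PES1, BOP1 and WDR12 form 1 complex, PeBoW, and had similar ratios as deposited. WDR12 was 1.45-fold lower (1.34 to 1.56), at 7.39 FPKM in shSIK2 against 10.7 in scrambled cells (1154 and 1674 reads). PES1 was 1.37-fold lower (1.28 to 1.48), at 17.2 FPKM in shSIK2 against 23.6 in scrambled cells (1345 and 1848 reads), and BOP1, the most abundant of the group, was 1.32-fold lower (1.25 to 1.40), at 31.7 FPKM in shSIK2 against 41.9 in scrambled cells (2019 and 2674 reads). None of the 3 passed 1.5-fold, and the intervals of the folds overlap one another. With the GC content and length trend removed the log2 ratios lay further apart, at -0.94 for BOP1, -0.59 for PES1 and -0.27 for WDR12, and BOP1 and PES1 were then past 1.5-fold. The gene not measured was NOP2, an rRNA cytosine methyltransferase, with 10 reads in the shSIK2 library and 7 in the scrambled library. A protein-coding gene of the annotation on the same strand, AC006064.6, shares 54.4% of the exonic bases of NOP2 and is itself listed at 0 in both libraries. The part of this overlap in the low value was not tested, and no direction is read for NOP2.

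The snoRNP proteins divided within their complexes. Of the 3 box C/D proteins, NOP58 (ENSG00000055044, chromosome 2, 202265716 to 202303666) was at 19.6 FPKM (1111 reads) in the shSIK2 library and 42.5 FPKM (2404 reads) in the scrambled library, 2.16-fold lower (2.01 to 2.33). Its partner NOP56 was at 35.3 FPKM in shSIK2 against 38.4 in scrambled cells (3271 and 3559 reads), 1.09-fold lower (1.04 to 1.14). FBL, fibrillarin, the methyltransferase of the complex, was at 68.3 FPKM in shSIK2 against 77.5 in scrambled cells (2548 and 2891 reads), 1.13-fold lower (1.08 to 1.20). In the cell these proteins sit on the same RNA, and their transcripts did not share 1 ratio: the log2 ratios were -1.11 for NOP58, -0.18 for FBL and -0.12 for NOP56. At equal totals they were -0.97, -0.04 and 0.02. Relative to neighbours they were -0.96 for NOP58, -0.23 for FBL and -0.56 for NOP56, so NOP56 lay further from FBL there.

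Of the 4 box H/ACA proteins, which also bind telomerase RNA, 3 were at least 1.5-fold lower, against 21.3% of all measured genes. The group median was -0.82. GAR1 (ENSG00000109534, chromosome 4, 109815510 to 109824740) stood at 10.8 FPKM (380 reads) in the shSIK2 library and 23.7 FPKM (833 reads) in the scrambled library, 2.19-fold lower (1.94 to 2.48). DKC1, dyskerin, the pseudouridine synthase (ENSG00000130826, chromosome X, 154762742 to 154777689), stood at 42.4 FPKM in shSIK2 against 78.2 in scrambled cells (3060 and 5640 reads), 1.84-fold lower (1.76 to 1.93). NHP2 stood at 22.9 FPKM in shSIK2 against 39.0 in scrambled cells (593 and 1011 reads), 1.70-fold lower (1.54 to 1.89). The small protein NOP10 was the exception at 65.8 FPKM in shSIK2 against 75.9 in scrambled cells (626 and 722 reads), 1.15-fold lower (1.03 to 1.29). Thus 3 of the 4 H/ACA transcripts were low, and the order of their FPKM in the scrambled library, DKC1, NOP10, NHP2 and GAR1, became NOP10, DKC1, NHP2 and GAR1 in the shSIK2 library. NHP2 shares 27.4% of its exonic bases with exons of RMND5B on the other strand, and the sources used here do not say whether counting used the strand.

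Of the 52 genes 4 hold annotated snoRNA genes within their bounds on the same strand, 14 in all: NOP56, NOP58, NCL and DKC1. Their log2 ratios were -0.12, -1.11, -0.65 and -0.88, and NOP58, NCL and DKC1 were at least 1.5-fold lower, against 21.3% of all measured genes.

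Exosome transcripts ranged from EXOSC6, 2.10-fold lower, to EXOSC9, with nearly equal values. Of 10 subunits 9 had ratios below 0, against 55.9% of all measured genes. At least 1.5-fold lower were 4, against 21.3%, and at least 2-fold lower was 1, against 8.28%. The group median was -0.39. EXOSC6, a ring subunit (ENSG00000223496, chromosome 16, 70246778 to 70251930), stood at 7.09 FPKM (627 reads) in the shSIK2 library and 14.9 FPKM (1317 reads) in the scrambled library, 2.10-fold lower (1.91 to 2.31). EXOSC8, also in the ring, stood at 10.9 FPKM in shSIK2 against 21.2 in scrambled cells (676 and 1319 reads), 1.95-fold lower (1.78 to 2.14), and EXOSC5, the most abundant by mean FPKM, at 19.8 FPKM in shSIK2 against 38.0 in scrambled cells (506 and 970 reads), 1.92-fold lower (1.72 to 2.14). EXOSC3, a cap subunit, stood at 12.0 FPKM in shSIK2 against 23.4 in scrambled cells (621 and 1213 reads), 1.95-fold lower (1.77 to 2.16). As deposited these 4 lay between -1.06 and -0.94 on the log2 scale, and the other 6 between -0.42 and 0.12. The gap was narrower at other settings. With the trend removed EXOSC3 was at -0.66 and EXOSC4 at -0.49, and relative to neighbours at -0.37 and -0.22.

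Among those 6, EXOSC2 of the cap was 1.34-fold lower (1.24 to 1.45), EXOSC4 of the ring 1.29-fold lower (1.16 to 1.44) and EXOSC1 of the cap 1.25-fold lower (1.08 to 1.44). Exons of other genes cover 19.5% of the exonic bases of EXOSC4 on the other strand and 4.90% on the same strand. EXOSC7 stood at 5.42 FPKM in shSIK2 against 6.27 in scrambled cells (413 and 478 reads), 1.16-fold lower (1.01 to 1.32), but its log2 ratio was 0.14 with the trend removed and 0.08 relative to neighbours. EXOSC10, the nuclear exonuclease attached to the barrel, was at 17.9 FPKM in shSIK2 against 18.3 in scrambled cells (1849 and 1883 reads), 1.02-fold lower (0.955 to 1.09), though exons of genes on the other strand cover 39.3% of its exonic bases. EXOSC9, a ring subunit, was at 10.9 FPKM in shSIK2 against 10.1 in scrambled cells (885 and 813 reads), 1.09-fold higher (0.989 to 1.20). As deposited the intervals of EXOSC9 and EXOSC10 include 1, and at equal totals their log2 ratios were 0.26 and 0.11. The barrel has each of its subunits once, as is known from its structure, while the transcripts spanned 4.45-fold in the shSIK2 library and 6.06-fold in the scrambled library. The 6 ring subunits had a median log2 ratio of -0.65, from EXOSC6 at -1.06 to EXOSC9 at 0.12. EXOSC3 lies where neighbouring genes had a median of -0.59, the lowest of any listed gene, and relative to them its log2 ratio was -0.37.

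Of the 5 nucleolar chaperones and regulators, 3 were at least 1.5-fold lower, against 21.3% of all measured genes. The group median was -0.65. MYBBP1A, a nucleolar protein tied to Pol I and rRNA processing, stood at 23.2 FPKM (2475 reads) in the shSIK2 library and 42.5 FPKM (4525 reads) in the scrambled library, 1.83-fold lower (1.74 to 1.92). NOLC1, a chaperone of snoRNPs, stood at 70.8 FPKM in shSIK2 against 112 in scrambled cells (4822 and 7604 reads), 1.58-fold lower (1.52 to 1.64). NCL, nucleolin, stood at 55.9 FPKM in shSIK2 against 87.9 in scrambled cells (6647 and 10458 reads), 1.57-fold lower (1.53 to 1.62). NPM1, nucleophosmin, by far the most abundant of the 52, had 340 FPKM in shSIK2 against 388 in scrambled cells (22363 and 25482 reads), 1.14-fold lower (1.12 to 1.16). Depth makes these intervals narrow, so NPM1 lies beyond counting error with a small ratio of -0.19, and -0.05 at equal totals. The annotation names 45 NPM1 pseudogenes, with 400 reads in all in the shSIK2 library and 561 in the scrambled library. RRP8, an rRNA base methyltransferase that also takes part in silencing of ribosomal DNA, was at 3.10 FPKM in shSIK2 against 2.48 in scrambled cells (368 and 295 reads), 1.25-fold higher (1.07 to 1.46). As deposited it was the only one of the 51 higher beyond its counting interval, and it was one of the least abundant. At equal totals, where no intervals were calculated, 44 of the 51 were below 0. There the log2 ratios of EXOSC9, NOB1 and RRP8 were 0.26, 0.13 and 0.44.

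**Figure D5:**
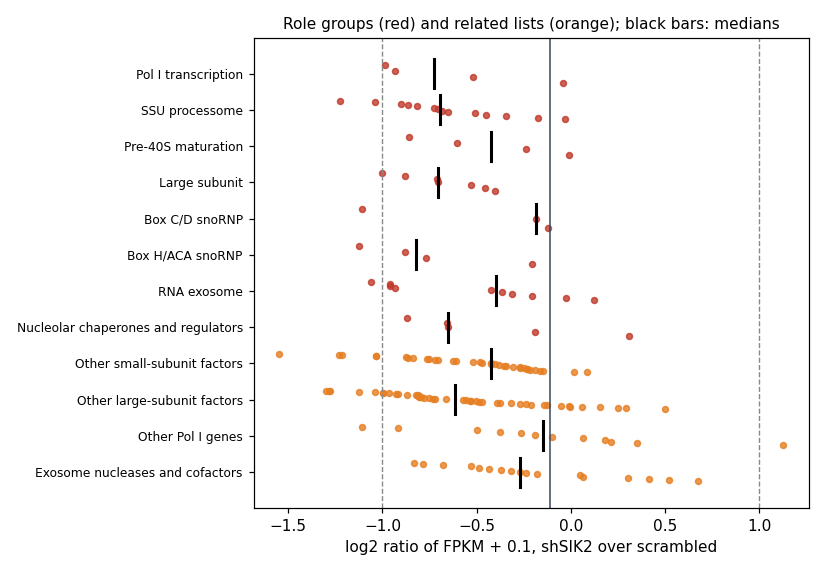
Log2 ratio of FPKM plus 0.1, shSIK2 over scrambled (horizontal axis), of each measured gene in the role groups (red) and in the related lists (orange), with black bars at the medians, dashed lines at 2-fold and a dark line at the median of all measured genes. Role group medians range from -0.82 (box H/ACA) to -0.18 (box C/D), and the lists of other Pol I genes and of exosome cofactors lie closer to the dark line than those of other subunit factors.

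Related genes outside the 52 were set beside them, in lists made by known role. Of 35 measured other small-subunit factors 33 had ratios below 0, 14 were at least 1.5-fold lower and 0 at least 1.5-fold higher, with a median of -0.43. PNO1, a late factor of the small subunit, was 2.95-fold lower (2.62 to 3.34), at 7.71 FPKM in shSIK2 against 22.8 in scrambled cells (354 and 1046 reads). PDCD11 and HEATR1, large processome scaffolds, were 2.36-fold lower (2.24 to 2.48) and 2.33-fold lower (2.21 to 2.45), and RCL1 was 2.06-fold lower (1.88 to 2.26), though relative to its neighbours the log2 ratio of RCL1 was -0.11, against -1.03 as deposited. Of 46 other large-subunit factors 41 were below 0, 23 at least 1.5-fold lower and 0 at least 1.5-fold higher, with a median of -0.62. NOC3L, GNL3L, EBNA1BP2 and URB2 were 2.48-fold lower (2.31 to 2.66), 2.46-fold lower (2.14 to 2.82), 2.43-fold lower (2.28 to 2.60) and 2.20-fold lower (2.03 to 2.37). Both lists stood with the 51 genes in direction, with 33 of 35 and 41 of 46 below 0, against 55.9% of all measured genes. At least 1.5-fold lower were 14 of 35 and 23 of 46, against 21.3% of all measured genes. In neither list was any gene at least 1.5-fold higher, against 19.7%.

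The other Pol I genes did not share that direction as a list. Of 12 measured, 7 were below 0 (58.3%, against 55.9% of all measured genes), 2 at least 1.5-fold lower (16.7%, against 21.3%) and 1 at least 1.5-fold higher, against 19.7%, with a median of -0.15, near that of all measured genes. TAF1C, a subunit of the promoter selectivity factor, was 2.25-fold higher (1.89 to 2.68), at 4.48 FPKM in shSIK2 against 2.00 in scrambled cells (429 and 191 reads). The Pol I subunits POLR1G and POLR1F (CD3EAP and TWISTNB in the annotation) were 2.20-fold lower (1.83 to 2.66) and 1.89-fold lower (1.76 to 2.04), and POLR1E was 1.41-fold lower (1.33 to 1.5). Relative to its neighbours POLR1E had a log2 ratio of 0.20, against -0.50 as deposited. Of 17 exosome nucleases and cofactors 11 were below 0 (64.7%, against 55.9% of all measured genes), 3 at least 1.5-fold lower (17.6%, against 21.3%) and 1 at least 1.5-fold higher, against 19.7%, with a median of -0.27. ZCCHC8, of a nuclear targeting complex, was 1.79-fold lower (1.66 to 1.93), TENT4B, a poly(A) polymerase, 1.74-fold lower (1.56 to 1.95), and HBS1L 1.61-fold lower (1.52 to 1.71). ZFC3H1, of another targeting complex, was 1.62-fold higher (1.46 to 1.79), with a log2 ratio of 0.68 as deposited and 1.46 relative to neighbours. With the GC content and length trend removed, the medians of these lists were -0.30 and -0.44 for the other small- and large-subunit factors, 0.10 for the other Pol I genes and 0.04 for the exosome cofactors. Among the catalytic partners, DIS3, the barrel's own nuclease, was 1.35-fold lower (1.26 to 1.45), at 7.79 FPKM in shSIK2 against 10.5 in scrambled cells (1448 and 1960 reads), and the helicase MTREX was 1.13-fold lower (1.07 to 1.20), with a log2 ratio of 0.10 once the trend was removed; these were named after their values were seen.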

How the data were processed

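RNA sequencing libraries of BT549 cells were compared: 1 shSIK2 and 1 scrambled, grouped by the treatment label. The submitters' processing notes name HISAT2 2.0.5 and genome build hg18; how reads were counted and FPKM calculated is not given in these sources. The authors deposited FPKM per Ensembl gene, with no counts. All 58735 identifiers matched GENCODE release 29 (GRCh38), the source of symbols, exon lengths and gene coordinates; the build aligned to is not settled. FPKM times exon length gave whole multiples of 58.3 in both tables for 100% of values above 0 (relative tolerance 0.001), taken as reads, so both tables share 1 depth divisor.

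Log2 ratios are of FPKM plus 0.1 and understate low genes. Folds are ratios of reads with exact Clopper-Pearson 95% intervals conditional on the sum. No test was possible with 1 library per group. GC content is that of the longest transcript; trends were removed by medians in 20 bins of GC content and exon length. All listed genes were named with values where they were past 1.5-fold, among the 3 highest or lowest of their role group or its most abundant; of related lists up to 4 were named. Members and lists were chosen with earlier results of these data known. Steps were tested on simulated data. Calculations used scipy 1.17.1, numpy 2.4.6 and pandas 2.3.3 in Python 3.11.15, and figures matplotlib 3.10.9.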

Additional observations from a re-analysis of the deposited data

How the results depend on the processing

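The alternatives were scaling to equal totals, pseudocounts of 0.01 and 1, no filter or 5 FPKM, removal of the GC content and length trend, and subtraction of the median of 20 neighbours. Under all of them the list median stayed below 0, between -0.66 and -0.46, and 0 genes were at least 1.5-fold higher. The count of genes at least 2-fold lower was 6 as deposited, against 8.28% of all measured genes, and 1 at equal totals, against 6.04%. It was 3 with a pseudocount of 1, for which no share of all genes is given. That at least 1.5-fold lower was 28 as deposited, against 21.3% of all measured genes, and 17 relative to neighbours, against 17.2%. The box C/D median was -0.18 as deposited, -0.04 at equal totals, -0.10 with the trend removed and -0.56 relative to neighbours. The other role group medians also stayed below 0 but changed in size. That of the processome was -0.69 as deposited and -0.46 with the trend removed. Relative to neighbours the exosome median was -0.21, against -0.39 as deposited, and that of the nucleolar chaperones and regulators -0.40, against -0.65. Those of box H/ACA and precursor small-subunit maturation were lower there, at -0.90 against -0.82 and -0.52 against -0.42. No listed gene past 1.5-fold changed sign under any of these settings. Of the 51 genes, 44 were below 0 at equal totals (against 48.3% of all measured genes), 44 with the trend removed (against 49.9% of protein-coding genes) and 44 relative to neighbours (against 50.7%). No paired analysis was possible because each group held 1 library. Reads carry no molecular identifiers, so the intervals cover counting error only and say nothing of the spread between cultures.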

Other observations

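Transcripts of the MYC network, known regulators of ribosome biogenesis, were divided. MYC was at 87.6 FPKM (4513 reads) in the shSIK2 library and 123 FPKM (6352 reads) in the scrambled library, 1.41-fold lower (1.35 to 1.46). Its log2 ratio was -0.49 as deposited and -0.35 at equal totals. Of 9 measured genes of the network 7 were below 0, against 55.9% of all measured genes, 3 were at least 1.5-fold lower, against 21.3%, and 1 was at least 1.5-fold higher, against 19.7%, with a median of -0.40. MXD3, a MAX partner that represses transcription, was 4.72-fold higher (3.70 to 6.07), at 4.32 FPKM in shSIK2 against 0.916 in scrambled cells (382 and 81 reads), with a log2 ratio of 2.12 as deposited and 1.41 relative to neighbours. Its relatives MXD1 and MXI1 were 2.75-fold lower (2.43 to 3.11) and 2.08-fold lower (1.83 to 2.37), and MGA, a large MAX partner, was 1.77-fold lower (1.63 to 1.92). Repressors of 1 family thus lay on both sides.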
